A study of Homo sapiens with 14 samples.

Results

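The genes of the proteasome were followed in MOLM14, an established human acute myeloid leukaemia cell line whose growth depends on the receptor tyrosine kinase FLT3. Members were the protein-coding genes whose symbols begin with PSMA, PSMB, PSMC, PSMD, PSME, PSMF or PSMG and go on with a digit, together with POMP. The symbol rule gave 51 genes, of which 50 were found among the 39293 identifiers of the expression table, and PSMB3 was not analysed here. Of the 50, 48 had enough counts to be tested. The testis-type alpha subunit PSMA8 had no counts in any library and the thymus-type beta subunit PSMB11 reached at most 0.0315 CPM, so both fell under the filter on low counts. A pair of tested symbols, PSMC3IP (a meiotic recombination factor) and PSME3IP1 (a binding partner of PSME3), match the rule but encode no proteasome subunit, which leaves 46 genes of subunits, regulators and assembly factors.

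There were 14 libraries in 4 arms. The FGF2 early arm (4 libraries, from flasks 5 to 8) held MOLM14 lines with early resistance to gilteritinib, an inhibitor of FLT3, kept in fibroblast growth factor FGF2. The FL early arm (4 libraries, from flasks 9 to 12) held early resistant lines kept in FL, the ligand of FLT3. Each ligand was used at 10 ng/mL, and all early cultures were on 100 nM gilteritinib for 48 h. The acute arm (3 libraries) held parental MOLM14 cells given 100 nM gilteritinib for 48 h, once with the drug alone, once with FGF2 and once with FL. The parental arm (3 libraries) held untreated MOLM14 cells. In every comparison of early with parental cells, the resistant line, the ligand and the drug differ together and cannot be told apart. The spread of the acute arm holds the differences between its 3 treatments. The labels do not state whether the 3 parental libraries are separate cultures, so p-values measure the spread between these libraries, which may be technical in the parental arm.

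The proteasome is the protease that degrades ubiquitin-tagged proteins in the cytosol and nucleus. Its barrel, the 20S core particle, stacks rings of alpha subunits, which gate the entry, around rings of beta subunits, a few of which cut peptide bonds. The 19S regulatory particle caps the core. Its ATPase subunits unfold the substrate, and its other subunits recognise ubiquitin and remove it. In blood cells and after interferon, the inducible beta subunits of the immunoproteasome can replace the constitutive catalytic ones, and leukaemic and myeloma cells are known for their need of proteasome activity.

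Libraries held between 25723575 and 33075041 estimated counts. Expression is given as CPM (counts scaled to a common library size), scaled by edgeR's trimmed mean of M values (TMM), and changes are log2 fold changes ± standard error from one edgeR quasi-likelihood fit over all 14 libraries. A gene was called at a Benjamini-Hochberg adjusted p under 0.05 over the 15756 genes tested. The 8 myeloid markers, given like the other markers as counts per total counts, summed to 788 to 884 CPM in FGF2 early, 1216 to 2054 CPM in FL early, 1316 to 1682 CPM in acute and 848 to 859.9 CPM in parental libraries, and their part in the results was not tested. CD33 reached 48.03 CPM or more and FLT3 322 CPM or more in every library. The other 6 varied more or were low. MPO ranged from 4.73 to 698 CPM, with 4.73 to 5.21 CPM in acute libraries, and LYZ from 67.1 to 893 CPM. CSF1R ranged from 6.88 to 196 CPM, ITGAM from 24.7 to 102 CPM and SPI1 from 76.0 to 190 CPM. CD14 was at 0.884 CPM or less. Markers of other cells were low: the erythroid gene HBB had no counts in any library, the T cell genes summed to 1.08 CPM or less, the B cell genes to 0.835 CPM or less, and the fibroblast genes to 2.17 CPM or less. The 4 epithelial genes summed to 12.7 to 37.5 CPM through the keratins, with EPCAM at 0.132 CPM or less. Ribosomal protein genes took 16.3% to 19.7% of the counts in acute libraries, against 10.8% to 13.03% in the other 11 libraries. Acute libraries also stood apart in the mitochondrial share of counts, 3.52% to 3.91% against 4.26% to 5.31%, and in the share of unnamed identifiers, 5.46% to 5.53% against 4.63% to 4.87%. The part of these shares in the acute falls was not tested beyond the scaling that leaves out ribosomal protein and mitochondrial genes. In bulk RNA, fewer cells holding a transcript and less of it per cell cannot be told apart.

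Proteasome genes fell most in acutely treated cells and stood between acute and parental cells in the early resistant lines. Against parental cells, 43 of the 48 members fell in acute cells and 2 rose, while 30.3% of all genes tested fell and 32.3% rose. The median log2 fold change was -0.83 over the 46 subunit and cofactor genes and 0.07 over all genes. In the early lines, 29 of 48 members fell against parental cells and 1 rose, against 16.1% of all genes that fell and 13.7% that rose, with a median of -0.24 over the 46 genes and 0.01 over all genes. All 29 were also among the 43 that fell in acute cells, a count that rests in part on the same parental libraries. This overlap was not counted over all genes, so whether the members stand out in it was not tested.

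Set against acute cells, 42 of 48 members were higher in the early lines and 1 was lower, while 32.1% of all genes were higher and 33.9% lower. Their median log2 difference was 0.55 over the 46 genes and -0.04 over all genes. At 1.5-fold or more, 35 of 48 members fell in acute cells, against 22.4% of all genes. No member fell that far in early cells, where 6.57% of all genes did. Early cells exceeded acute cells by 1.5-fold or more in 22 members and in 21.1% of all genes.

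The lower count in early cells depends on the parental libraries: 19 members were called without parental replicate 1. Calls over all genes were not counted in the fits that left out a library. Whether members lost more calls than other genes was therefore not tested. The median log2 fold change over the 46 genes was -0.25, -0.23 and -0.26 without parental replicate 1, 2 or 3. The count in acute cells ranged from 41 to 43 when each library was left out in turn. With ribosomal protein and mitochondrial genes left out of the scaling factors, 43 members fell in acute cells and 29 in early cells. Of all 15756 genes tested, 4778 fell in acute and 2366 in early cells under that scaling. Upper quartile scaling moved the median of all genes by 0.11 in acute against parental cells and by -0.12 in early against acute cells (log2). Under upper quartile scaling 41 members and 4232 of all 15756 genes fell in acute cells. The median log2 fold change over the 46 genes was -0.72.

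**Figure D1:**
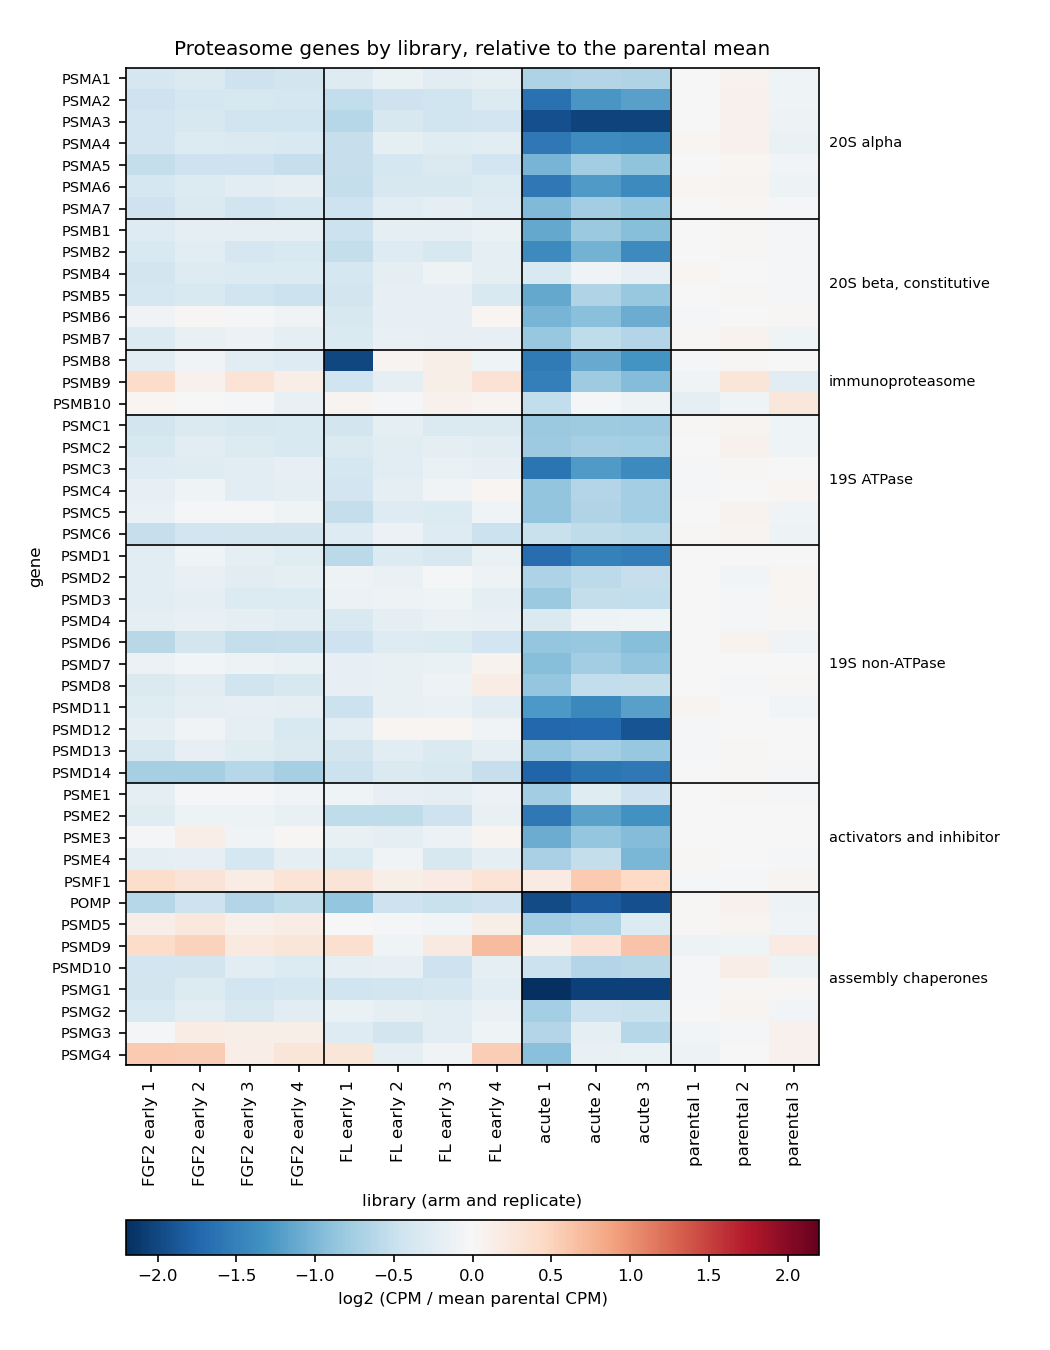
Each row is 1 of the 46 proteasome genes, each column 1 library, and colour gives the log2 ratio of its CPM to the gene's mean in the 3 parental libraries (blue lower, red higher). The acute columns are the bluest, PSMF1 and PSMD9 stand out as red rows, and PSMB8 in FL early replicate 1 is the darkest cell outside the acute columns.

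To show what lies upstream of some genes with large and small acute falls, the 250 bases before the annotated start are given for 4 genes. PSMG1 and PSMA3 had the largest acute falls of their classes, PSMD14 had the second largest of its class, and PSMB4 had the second smallest of all acute falls called. The sequences are RefSeq's on GRCh38.p14, printed 5′ to 3′ on the gene's strand, and capitals mark each match to TGANNNNGC on either strand, a relaxed core of the antioxidant response element that the transcription factors NFE2L1 and NFE2L2 bind.
PSMG1, chr21:39183452-39183701, minus strand: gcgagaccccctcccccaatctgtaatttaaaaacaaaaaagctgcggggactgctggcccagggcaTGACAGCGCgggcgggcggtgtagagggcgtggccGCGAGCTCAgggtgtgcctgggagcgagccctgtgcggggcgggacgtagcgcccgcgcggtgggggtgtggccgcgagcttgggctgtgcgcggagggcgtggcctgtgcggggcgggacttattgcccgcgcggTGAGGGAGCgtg
PSMA3, chr14:58244593-58244842, plus strand: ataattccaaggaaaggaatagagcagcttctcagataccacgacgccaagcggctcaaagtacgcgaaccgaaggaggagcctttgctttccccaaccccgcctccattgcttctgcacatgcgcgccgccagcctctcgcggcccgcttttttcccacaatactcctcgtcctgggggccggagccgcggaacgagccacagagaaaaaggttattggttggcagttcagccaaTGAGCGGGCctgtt
PSMD14, chr2:161308175-161308424, plus strand: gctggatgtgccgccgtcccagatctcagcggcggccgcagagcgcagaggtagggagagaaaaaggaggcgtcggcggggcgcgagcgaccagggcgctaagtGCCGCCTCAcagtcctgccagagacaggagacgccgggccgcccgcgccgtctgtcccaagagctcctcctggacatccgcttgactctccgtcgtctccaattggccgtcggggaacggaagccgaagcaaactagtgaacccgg
PSMB4, chr1:151399323-151399572, plus strand: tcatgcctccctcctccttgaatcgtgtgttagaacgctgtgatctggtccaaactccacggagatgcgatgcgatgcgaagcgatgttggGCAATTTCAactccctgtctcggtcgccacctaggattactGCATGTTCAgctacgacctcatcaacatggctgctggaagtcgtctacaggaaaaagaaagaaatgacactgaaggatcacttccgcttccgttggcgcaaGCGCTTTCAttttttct
PSMG1 and PSMB4 each hold 3 matches, at opposite ends of the range of acute falls. PSMA3 and PSMD14 hold 1 match each. POMP and PSMD12, which fell more than PSMD14 in acute cells, are not shown. POMP holds 0 matches to TGANNNNGC and PSMD12 holds 1. RefSeq entries were found for 44 of the 50 members. TGANNNNGC was present in 23 of these 44 (52.3%), against 35.4% of all 27305 promoters of the same length. The CCAAT box was present in 19 of 44 (43.2%), against 33.0% of all promoters. TTCNNNGAA, a simplified heat shock motif that reads the same on both strands, was present in 5 of 44 (11.4%), against 6.78% of all promoters. An interferon response motif, not spelled out here, was present in PSMA4, PSMB4, PSMB10, PSME2 and PSMG4, 5 of 44 (11.4%), against 3.07% of all promoters. Each motif was searched on both strands and none was excluded for overlapping another. A match describes letters and is not a binding site.

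Of the 20S core genes, those of the alpha ring had the lowest median log2 fold changes. Their difference from the beta genes was not tested. In acute cells alpha genes ranged from -2.005 to -0.66 and constitutive beta genes from -1.27 to -0.19. All 7 alpha genes, PSMA1 to PSMA7, fell in early and in acute cells against parental cells. Their median log2 fold change was -0.35 in early cells, where all genes had 0.01. In acute cells it was -1.36, where all genes had 0.07. PSMA3, an alpha ring subunit, measured 113, 118, 111 and 111 CPM in FGF2 early, 97.5, 117, 111 and 113 CPM in FL early, 39.4, 36.7 and 36.6 CPM in acute and 151, 162 and 139.6 CPM in parental libraries. Every acute library lay below every early library, and every early library below every parental one. The fall was -0.44 ± 0.06 in early cells (edgeR quasi-likelihood test, Benjamini-Hochberg adjusted p = 0.000263) and -2.005 ± 0.08 in acute cells (edgeR adjusted p = 7.45e-11). Early cells exceeded acute cells by 1.57 ± 0.07 (edgeR adjusted p = 2.26e-10).

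PSMA5 had the largest fall of the alpha genes in early cells, at -0.45 ± 0.06, with 99.3 ± 2.45 CPM in FGF2 early and 105 ± 6.10 CPM in FL early (SD, n = 4 each), 75.1 ± 6.53 CPM in acute and 139 ± 5.28 CPM in parental libraries (SD, n = 3 each). PSMA4 fell by 1.46 on the log2 scale in acute cells, to 62.6 ± 4.47 CPM, against 172 ± 15.1 CPM in parental cells. PSMA1 fell least of the ring in acute cells, at -0.66 ± 0.06, with 92.1, 94.8 and 93.8 CPM in acute and 148, 157 and 139 CPM in parental libraries. Even for this gene the acute and parental libraries did not overlap.

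In the beta ring, 5 of the 6 constitutive genes measured fell in early cells and all 6 in acute cells, where 16.1% and 30.3% of all genes fell. The medians were -0.26 in early and -0.91 in acute cells, against 0.01 and 0.07 over all genes. PSMB5, which carries the chymotrypsin-like site and is the target of the drug bortezomib, measured 74.01, 77.2, 71.5 and 69.6 CPM in FGF2 early, 73.5, 85.7, 85.1 and 77.01 CPM in FL early, 44.5, 61.1 and 54.05 CPM in acute and 97.1, 98.8 and 94.6 CPM in parental libraries. Acute libraries were lowest and parental libraries highest, with no overlap between arms other than that of both early lines. Its log2 fold changes were -0.34 ± 0.08 in early cells (edgeR quasi-likelihood test, Benjamini-Hochberg adjusted p = 0.00692) and -0.86 ± 0.10 in acute cells (edgeR adjusted p = 3.73e-06).

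PSMB6, the caspase-like subunit, was the beta gene not called in early cells. It averaged 87.9 ± 2.93 CPM in FGF2 early and 80.7 ± 9.08 CPM in FL early (SD, n = 4 each), 44.9 ± 2.59 CPM in acute and 90.1 ± 1.22 CPM in parental libraries (SD, n = 3 each). Its log2 fold change was -0.10 ± 0.07 in early cells (edgeR adjusted p = 0.317) and -1.01 ± 0.09 in acute cells (edgeR adjusted p = 1.81e-07). PSMB7, the trypsin-like subunit, fell by 0.20 on the log2 scale in early cells (edgeR adjusted p = 0.0338), a call that was lost without FL early replicate 1 and without either parental replicate 1 or 2, among others. In acute cells PSMB7 changed by -0.68 ± 0.08, with 76.3 ± 7.35 CPM in acute and 122 ± 7.75 CPM in parental libraries.

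PSMB4, a non-catalytic subunit of the ring, had the smallest acute fall of the beta genes. It measured 243, 262, 259.6 and 262 CPM in FGF2 early, 246, 279, 296 and 277 CPM in FL early, 253, 305 and 283 CPM in acute and 329, 322 and 311 CPM in parental libraries. The acute and early libraries overlapped, and every parental library lay above all of them. The acute change was -0.19 ± 0.08 (edgeR adjusted p = 0.0476), a call lost under several alternatives. The early change was -0.27 ± 0.07 (edgeR adjusted p = 0.00698). Early and acute cells differed by -0.08 ± 0.07 (edgeR adjusted p = 0.306).

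**Figure D2:**
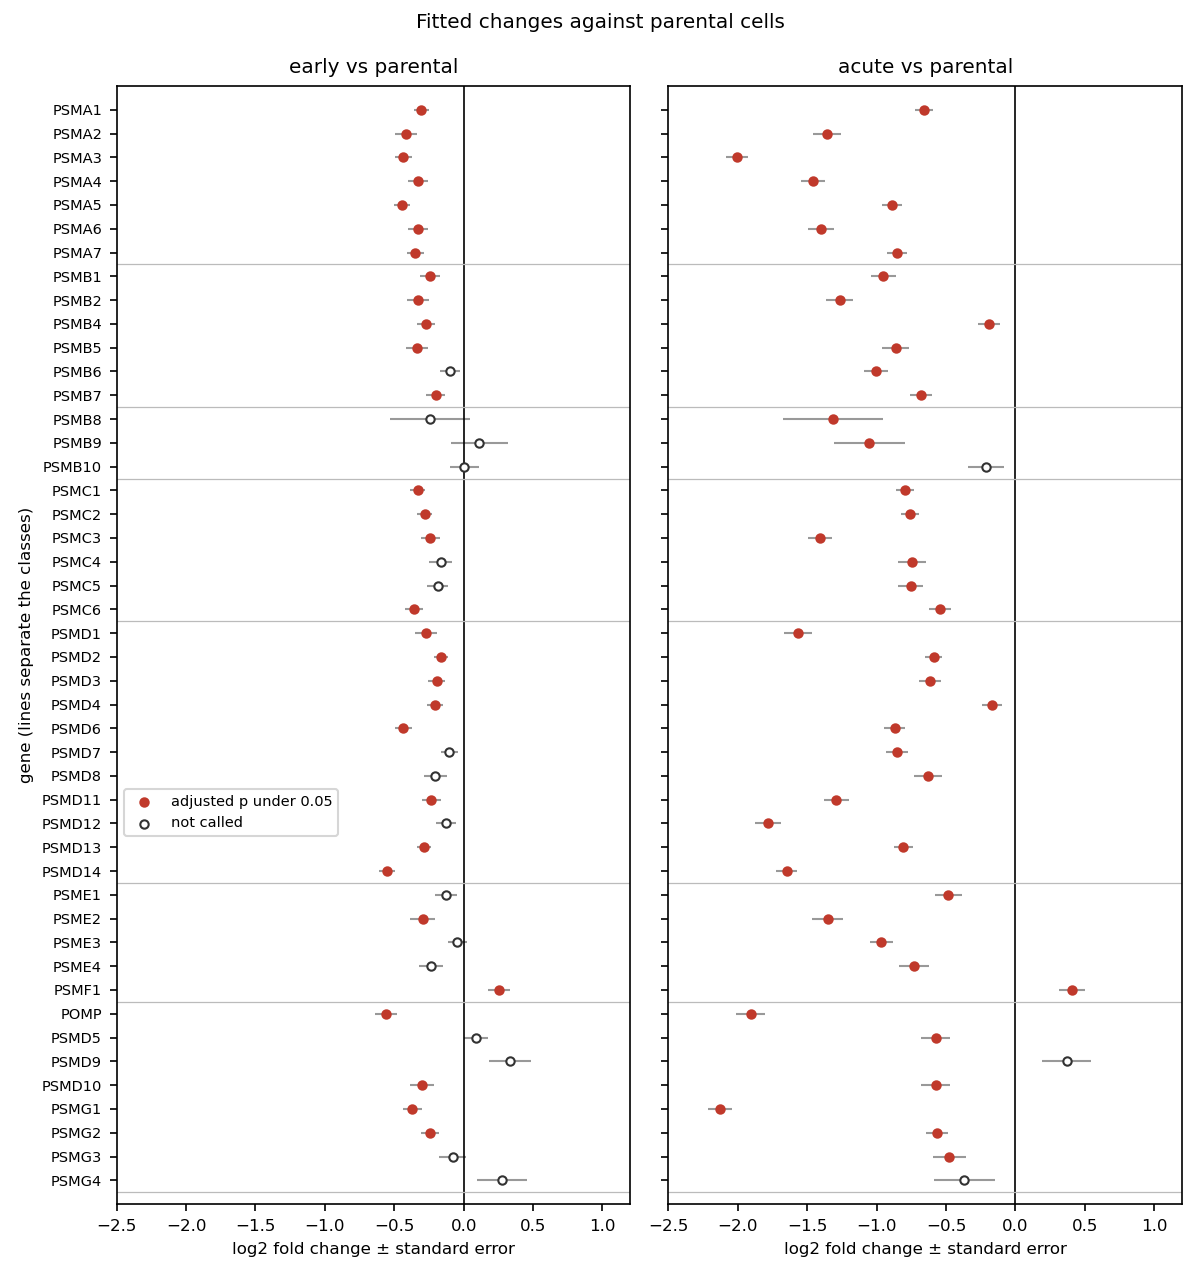
Points are the fitted log2 fold changes of the 46 genes against parental cells, with bars of 1 standard error, for early (left) and acute (right) cells, filled where the adjusted p was under 0.05. PSMG1, PSMA3 and POMP lie farthest left in acute cells, at -2.13, -2.005 and -1.91, while POMP and PSMD14 lead in early cells, at -0.56 and -0.55.

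For the 3 immunoproteasome genes no change was called in early cells, and 2 of them fell in acute cells, where 30.3% of all genes fell. Their median log2 fold change was 0.01 in early and -1.05 in acute cells, against 0.01 and 0.07 over all genes. Whether they differed from the constitutive genes was not tested. PSMB10, the inducible counterpart of PSMB7, measured 106, 103, 99.9 and 91.9 CPM in FGF2 early, 108, 101, 111 and 108 CPM in FL early, 71.2, 101 and 95.5 CPM in acute and 89.1, 97.1 and 123 CPM in parental libraries. Every other arm overlapped the parental range, and parental replicate 3 was the highest library of all. Its changes were 0.01 ± 0.11 in early cells (edgeR quasi-likelihood test, Benjamini-Hochberg adjusted p = 0.978) and -0.21 ± 0.13 in acute cells (edgeR adjusted p = 0.172). The early value changed sign under other scalings.

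PSMB8, the counterpart of PSMB5, carries an uncertain value. There were 4 unnamed identifiers with the same counts as PSMB8 within 1%, and 1 such identifier for PSMB9. In FL early replicate 1, PSMB8 had 110 estimated counts, against 169 to 538 in the other libraries, while a further unnamed identifier had 1589, against 135 to 372. PSMB8 measured 13.7, 15.4, 13.9 and 13.5 CPM in FGF2 early, 4.09, 16.96, 17.8 and 15.3 CPM in FL early, 5.54, 7.59 and 6.58 CPM in acute and 16.01, 16.7 and 16.3 CPM in parental libraries. FGF2 early libraries lay just below parental ones, the FL early libraries other than replicate 1 overlapped parental ones, and every acute library was below both. The acute change was -1.31 ± 0.36 (edgeR adjusted p = 0.0058) with that library in the fit and -1.35 (edgeR adjusted p = 4.23e-07) without it. The early change was -0.24 ± 0.29 (edgeR adjusted p = 0.564) with that library and -0.08 (edgeR adjusted p = 0.57) without it.

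PSMB9, the counterpart of PSMB6, was low throughout, at 3.46, 2.80, 3.24 and 2.91 CPM in FGF2 early, 1.93, 2.27, 2.86 and 3.25 CPM in FL early, 0.918, 1.51 and 1.35 CPM in acute and 2.48, 3.14 and 2.23 CPM in parental libraries. In acute cells its change was -1.05 ± 0.25 (edgeR adjusted p = 0.00239), and acute libraries lay below all others. In early cells its change was 0.11 ± 0.20 (edgeR adjusted p = 0.713).

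The log2 ratio of each inducible subunit to its constitutive counterpart compares them within a library and does not depend on the scaling. PSMB8 over PSMB5 averaged -2.37 in FGF2 early, -2.31 in FL early without replicate 1 (-2.77 with it), -3.02 in acute and -2.57 in parental libraries. The 3 acute ratios lay below the 3 parental ratios, and those of the early libraries other than FL early replicate 1 lay above them. PSMB9 over PSMB6 averaged -4.83 in FGF2 early, -4.99 in FL early, -5.18 in acute and -5.12 in parental libraries, and all arms overlapped. PSMB10 over PSMB7 averaged -0.09 in FGF2 early, 0.01 in FL early, 0.21 in acute and -0.26 in parental libraries, and parental replicate 3, at 0.11, lay within the ranges of FL early and acute libraries while the other parental libraries, at -0.47 and -0.41, lay below every other library. No test was run on these ratios. PSMB8 and PSMB9 are counted under a single identifier each, without the 4 and 1 unnamed identifiers that held the same counts. The level of the PSMB8 and PSMB9 ratios may therefore be too low.

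**Figure D3:**
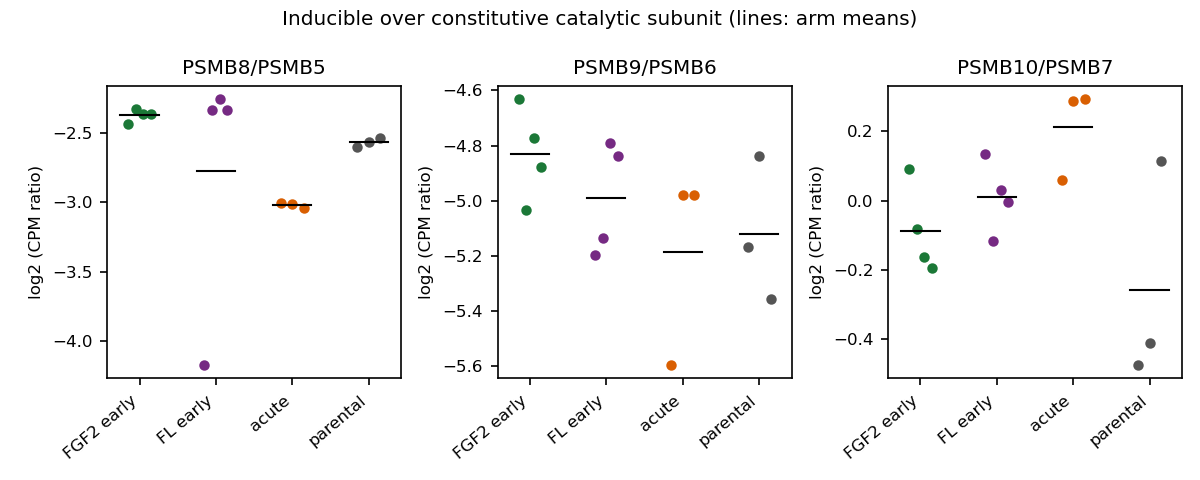
Each point is the log2 CPM ratio of an inducible to a constitutive catalytic subunit in 1 library, and lines are arm means. Unnamed identifiers with the same counts as PSMB8 and PSMB9 are left out. For PSMB8 over PSMB5 the acute libraries sit at -3.04 to -3.01, below the parental ones at -2.60 to -2.54, and FL early replicate 1 sits alone at -4.17.

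In the base of the 19S particle, 4 of the 6 ATPase genes fell in early cells and all 6 in acute cells, with medians of -0.26 and -0.76. Over all genes, 16.1% fell in early and 30.3% in acute cells. PSMC4 and PSMC5 were not called in early cells, at -0.16 ± 0.08 (edgeR quasi-likelihood test, Benjamini-Hochberg adjusted p = 0.147) and -0.19 ± 0.08 (edgeR adjusted p = 0.0796). PSMC3 had the largest acute fall of the ring. It measured 129, 131, 135 and 139 CPM in FGF2 early, 121, 132, 142 and 139 CPM in FL early, 51.97, 66.4 and 59.8 CPM in acute and 156, 161 and 157 CPM in parental libraries. The acute values were less than those of any other library, and the change was -1.41 ± 0.09 against parental cells (edgeR adjusted p = 6.42e-09). PSMC1, whose yeast counterpart helps to open the gate of the core, changed by -0.33 ± 0.05 in early and -0.80 ± 0.06 in acute cells, with means of 109.7 ± 2.70 CPM in FGF2 early and 113 ± 6.09 CPM in FL early (SD, n = 4 each), 80.6 ± 1.10 CPM in acute and 140.0 ± 8.42 CPM in parental libraries (SD, n = 3 each). PSMC6 had the smallest acute fall of the ATPase genes, -0.54 ± 0.08, and its FGF2 early libraries overlapped the acute ones.

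Of the 11 non-ATPase genes of the 19S particle, 8 fell in early cells and all 11 in acute cells, with medians of -0.21 and -0.85, against 16.1% and 30.3% of all genes that fell. PSMD14, the deubiquitinase that removes the ubiquitin chain before entry, measured 56.4, 56.5, 60.6 and 56.5 CPM in FGF2 early, 66.96, 74.995, 73.3 and 65.3 CPM in FL early, 27.4, 30.5 and 31.3 CPM in acute and 93.2, 95.4 and 91.2 CPM in parental libraries. Arms did not overlap: acute was lowest, followed by FGF2 early, FL early and parental cells. Against parental cells it changed by -0.55 ± 0.06 in early cells (edgeR quasi-likelihood test, Benjamini-Hochberg adjusted p = 2.93e-05) and by -1.65 ± 0.08 in acute cells (edgeR adjusted p = 3.31e-10). It was 1 of the 2 members called different between the early lines, at -0.29 ± 0.06 in FGF2 early against FL early (edgeR adjusted p = 0.00953).

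PSMD12, a subunit of the lid, fell strongly in acute cells and was not called in early cells. It measured 51.5, 56.4, 51.96 and 47.2 CPM in FGF2 early, 50.9, 61.8, 61.7 and 56.4 CPM in FL early, 17.97, 18.2 and 15.98 CPM in acute and 59.01, 60.4 and 59.9 CPM in parental libraries. FL early and parental libraries overlapped, FGF2 early libraries lay just below parental ones, and all acute libraries lay far below the rest. The acute change was -1.78 ± 0.09 (edgeR adjusted p = 1.32e-09), the early change -0.13 ± 0.07 (edgeR adjusted p = 0.204), and early exceeded acute cells by 1.65 ± 0.08 (edgeR adjusted p = 7.50e-10). PSMD1, a large scaffold subunit of the base, had 41.9 ± 2.87 CPM in acute and 124 ± 0.840 CPM in parental libraries (SD, n = 3 each), a change of -1.57 ± 0.10. PSMD6, another lid subunit, changed by -0.43 ± 0.06 in early cells (edgeR adjusted p = 0.000225), with 54.8, 62.98, 57.8 and 59.02 CPM in FGF2 early, 60.9, 68.8, 67.6 and 62.6 CPM in FL early and 83.1, 87.7 and 79.4 CPM in parental libraries. No early library reached the lowest parental one.

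PSMD4, a ubiquitin receptor of the particle, changed least in acute cells. It measured 193, 201, 194 and 192 CPM in FGF2 early, 177, 195, 202 and 201 CPM in FL early, 181, 208 and 210.3 CPM in acute and 226, 219.5 and 228 CPM in parental libraries. Its acute and early libraries overlapped, and the parental libraries were above all of them. The acute change was -0.17 ± 0.07 (edgeR adjusted p = 0.0475), a call lost when any 1 parental library was left out. PSMD4 and PSMB4 were also the most abundant members per length of transcript in parental cells, at 285 and 333 CPM per kb. PSMB9, at 3.34 CPM per kb, and PSME4, at 9.90 CPM per kb, were the least abundant of the 46.

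The activators replace or join the 19S particle at the ends of the core. PSME1 and PSME2 form the activator that interferon induces, PSME3 forms a nuclear one, and PSME4 is a large single-chain activator. All 4 fell in acute cells, where 30.3% of all genes fell, and of the 4 PSME2 was called in early cells. PSME2 measured 89.3, 99.5, 99.4 and 95.7 CPM in FGF2 early, 72.4, 72.6, 77.9 and 95.9 CPM in FL early, 36.2, 47.4 and 42.4 CPM in acute and 108, 107 and 107 CPM in parental libraries. Acute libraries were lowest, parental libraries highest, and the early libraries lay between. Its changes were -1.35 ± 0.11 in acute cells (edgeR quasi-likelihood test, Benjamini-Hochberg adjusted p = 1.35e-07) and -0.29 ± 0.09 in early cells (edgeR adjusted p = 0.0245), and the early call was lost when any 1 parental library was left out.

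Its partner PSME1 changed in acute cells by -0.48 ± 0.10 (edgeR adjusted p = 0.000582), with 82.8, 116 and 102 CPM in acute and 141, 142 and 138 CPM in parental libraries. PSME3 averaged 183 ± 12.8 CPM in FGF2 early and 168 ± 13.998 CPM in FL early (SD, n = 4 each), 92.4 ± 7.23 CPM in acute and 180.5 ± 1.67 CPM in parental libraries (SD, n = 3 each). Its acute change was -0.97 ± 0.08 (edgeR adjusted p = 2.13e-07), and its early change of -0.05 ± 0.07 (edgeR adjusted p = 0.656) changed sign under scaling by total counts. PSME4 changed by -0.73 ± 0.11 in acute cells (edgeR adjusted p = 3.48e-05) and by -0.24 ± 0.09 in early cells (edgeR adjusted p = 0.0537).

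PSMF1, which encodes a protein that inhibits the purified core particle, was the only one of the 46 genes that rose against parental cells, in early and in acute cells alike. It measured 101, 94.99, 87.4 and 96.6 CPM in FGF2 early, 95.1, 84.9, 88.6 and 95.8 CPM in FL early, 88.1, 116 and 105 CPM in acute and 76.8, 75.8 and 81.4 CPM in parental libraries. All early and acute libraries lay above all parental ones, and early and acute libraries overlapped. The rise was 0.26 ± 0.08 in early cells (edgeR adjusted p = 0.0258) and 0.40 ± 0.09 in acute cells (edgeR adjusted p = 0.00178). The early call was lost without parental replicate 1 and without parental replicate 2. The acute call was lost with the library given gilteritinib alone as the only acute one.

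**Figure D4:**
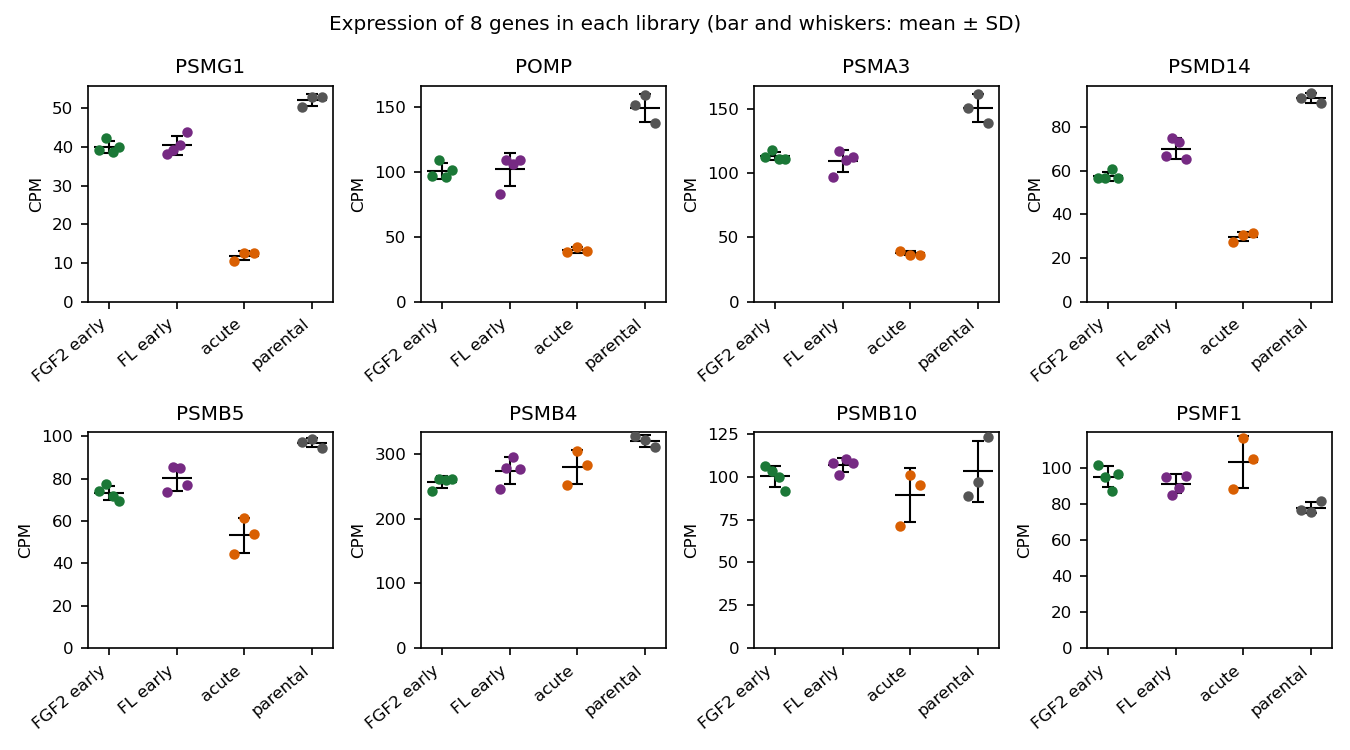
Points are CPM in each library for 8 genes, with the mean ± SD of each arm. PSMG1, POMP, PSMA3 and PSMD14 show acute libraries far below the rest, PSMB4 and PSMB10 show acute libraries close to early ones, and PSMF1 has its lowest values, 75.8 to 81.4 CPM, in parental cells.

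Assembly factors build the particle and leave it when it is complete. PSMG1 and PSMG2 form a pair that starts the alpha ring, PSMG3 and PSMG4 form a second pair, POMP helps to place the beta subunits and to join unfinished particles, and PSMD5, PSMD9 and PSMD10 escort ATPases of the 19S base. Of these 8 genes, 6 fell in acute and 4 in early cells, with medians of -0.57 and -0.16, against 30.3% and 16.1% of all genes that fell. PSMG1 measured 39.3, 42.2, 38.7 and 40.02 CPM in FGF2 early, 38.2, 39.2, 40.4 and 43.9 CPM in FL early, 10.5, 12.6 and 12.6 CPM in acute and 50.2, 52.8 and 53.05 CPM in parental libraries. Acute libraries had less than any other library by a wide gap, and early libraries lay below all parental ones. Its acute change of -2.13 ± 0.09 was the largest of the 46 genes (edgeR quasi-likelihood test, Benjamini-Hochberg adjusted p = 1.09e-10), and its early change was -0.37 ± 0.07 (edgeR adjusted p = 0.00136).

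POMP measured 97.04, 109.8, 96.3 and 102 CPM in FGF2 early, 83.3, 109, 106 and 109.5 CPM in FL early, 38.2, 42.2 and 39.2 CPM in acute and 152, 159 and 138 CPM in parental libraries. It had the largest early change of the 46 genes, -0.56 ± 0.08 (edgeR adjusted p = 0.00028), and an acute change of -1.91 ± 0.10 (edgeR adjusted p = 1.93e-09). Arms other than both early lines did not overlap. PSMG2, the partner of PSMG1, changed in acute cells by -0.57 ± 0.08 (edgeR adjusted p = 2.08e-05), with 32.9, 39.4 and 38.997 CPM in acute and 55.1, 57.1 and 52.6 CPM in parental libraries. The difference between the partners was not tested. PSMD10 changed by -0.30 ± 0.08 in early and -0.57 ± 0.10 in acute cells, at 17.5 ± 1.10 CPM in acute and 26.1 ± 2.53 CPM in parental libraries (SD, n = 3 each).

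The other 4 assembly genes were not called in early cells. PSMD5 changed by 0.09 ± 0.09 in early cells (edgeR adjusted p = 0.472) and by -0.57 ± 0.10 in acute cells (edgeR adjusted p = 0.00024). PSMD9 had 55.6, 59.6, 48.4 and 50.2 CPM in FGF2 early, 53.2, 39.2, 48.2 and 68.2 CPM in FL early, 45.1, 52.5 and 64.7 CPM in acute and 38.7, 39.3 and 47.6 CPM in parental libraries. FL early and acute libraries overlapped parental ones, all FGF2 early libraries lay above parental ones, and its changes were 0.33 ± 0.15 in early (edgeR adjusted p = 0.105) and 0.37 ± 0.18 in acute cells (edgeR adjusted p = 0.0834). PSMG4 had 30.95 ± 4.58 CPM in FGF2 early and 26.1 ± 6.30 CPM in FL early (SD, n = 4 each), 18.2 ± 5.06 CPM in acute and 23.5 ± 1.73 CPM in parental libraries (SD, n = 3 each). Its FL early libraries overlapped every other arm, while FGF2 early libraries lay above and acute libraries below parental ones. Its changes were 0.28 ± 0.18 in early (edgeR adjusted p = 0.272) and -0.37 ± 0.22 in acute cells (edgeR adjusted p = 0.156).

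Each early line was also set against parental cells on its own. In FGF2 early cells 26 of 48 members fell and 1, PSMF1, rose, against 17.1% of all genes that fell and 13.3% that rose. In FL early cells 24 of 48 fell and 0 rose, against 9.76% of all genes that fell and 10.9% that rose. At an unadjusted p under 0.05, 1 member was higher in FL early cells, and DESeq2 and limma-voom also called 0. The FL early count was 13 without parental replicate 1 and 12 without parental replicate 2, with medians over the 46 genes of -0.25 and -0.23. Calls over all genes were not counted in these fits. The lines share the parental libraries, and 20 members fell in both. Another 6 were called in FGF2 early alone and 4 in FL early alone, which does not test a difference between the lines. The matching overlap over all genes was not counted, so whether the members stand out in it was not tested. Medians over the 46 genes were -0.24 in FGF2 early and -0.25 in FL early cells.

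Direct comparison of the early lines called 1 member higher and 1 lower in FGF2 early than in FL early cells, against 4% of all genes higher and 9.56% lower. Besides PSMD14, the call was PSMG3. PSMG3 had 34.1, 38.9, 37.97 and 37.9 CPM in FGF2 early and 28.6, 26.2, 29.4 and 32.6 CPM in FL early libraries, which did not overlap, a difference of 0.35 ± 0.10 (edgeR quasi-likelihood test, Benjamini-Hochberg adjusted p = 0.0362). The PSMG3 call was lost in 8 of the 14 fits that left out 1 library, with adjusted p up to 0.107, while the PSMD14 call held in all 14. With scaling by total counts alone, 57.2% rather than 43.7% of the calls over all genes were upward in FGF2 early against parental cells, and 44.5% rather than 29.5% in FGF2 early against FL early cells.

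The 3 acute libraries differ in ligand and have no replicate of their own, so no test compares them. The 46 genes summed to 2825 CPM with gilteritinib alone, 3317 CPM with FGF2 added and 3166 CPM with FL added under TMM scaling. Under scaling by total counts the sums were 3026, 3178 and 3198 CPM in the same order, so the order of the libraries with ligand turned. The library without ligand was the lowest of the 3 for 38 of the 46 genes under TMM scaling and for 27 under scaling by total counts. In each of the 3 libraries at least 43 genes lay below all parental libraries under TMM scaling, and at least 41 under scaling by total counts. These counts of single libraries were not made over all genes, so whether the members stand out in them was not tested. With the library without ligand as the only acute one, the median log2 fold change over the 46 genes against parental cells was -0.93. With all 3 acute libraries it was -0.83.

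Summed over the 46 genes, expression was 4587 ± 122 CPM in FGF2 early and 4629 ± 249 CPM in FL early (SD, n = 4 each), 3103 ± 252 CPM in acute and 5445 ± 98.2 CPM in parental libraries (SD, n = 3 each). These are 84.3%, 85.0% and 57.0% of the parental mean for FGF2 early, FL early and acute cells. By class, acute cells retained 43.7% of the parental sum for alpha subunits, 54.7% for assembly factors, 55.3% for ATPases and 59.1% for non-ATPases. They retained 63.1% for constitutive beta subunits, 66.0% for the activators and PSMF1, and 79.5% for the immunoproteasome. Abundant members weigh most in these sums, and differences between the classes were not tested. The beta sum holds PSMB4, at 253, 305 and 283 CPM in acute and 329, 322 and 311 CPM in parental libraries. The non-ATPase sum holds PSMD4, at 181, 208 and 210 CPM in acute and 226, 219.5 and 228 CPM in parental libraries. The median log2 fold change in acute cells was -1.05 for the immunoproteasome genes and -0.91 for the constitutive beta genes. The immunoproteasome sum, as counted here, is mostly PSMB10, at 89.2 ± 15.9 CPM in acute and 103 ± 17.9 CPM in parental libraries (SD, n = 3 each). It leaves out the 4 unnamed identifiers with the same counts as PSMB8 and the 1 with those of PSMB9. If those hold split reads, the share of PSMB10 and the percentages retained by this class would differ, which was not tested. PSMB8 had 6.57 ± 1.03 CPM in acute and 16.3 ± 0.340 CPM in parental libraries, and PSMB9 had 1.26 ± 0.307 CPM in acute and 2.62 ± 0.470 CPM in parental libraries. Early cells ranged from 77.6% for alpha subunits to 98.5% for the immunoproteasome. FL early replicate 1 had the lowest value of its arm for 31 of the 46 genes. That rank was not counted over all genes, so whether the members stand out in it was not tested. The median coefficient of variation over the genes was 4.16% in FGF2 early, 7.67% in FL early, 9.01% in acute and 3.64% in parental libraries.

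**Figure D5:**
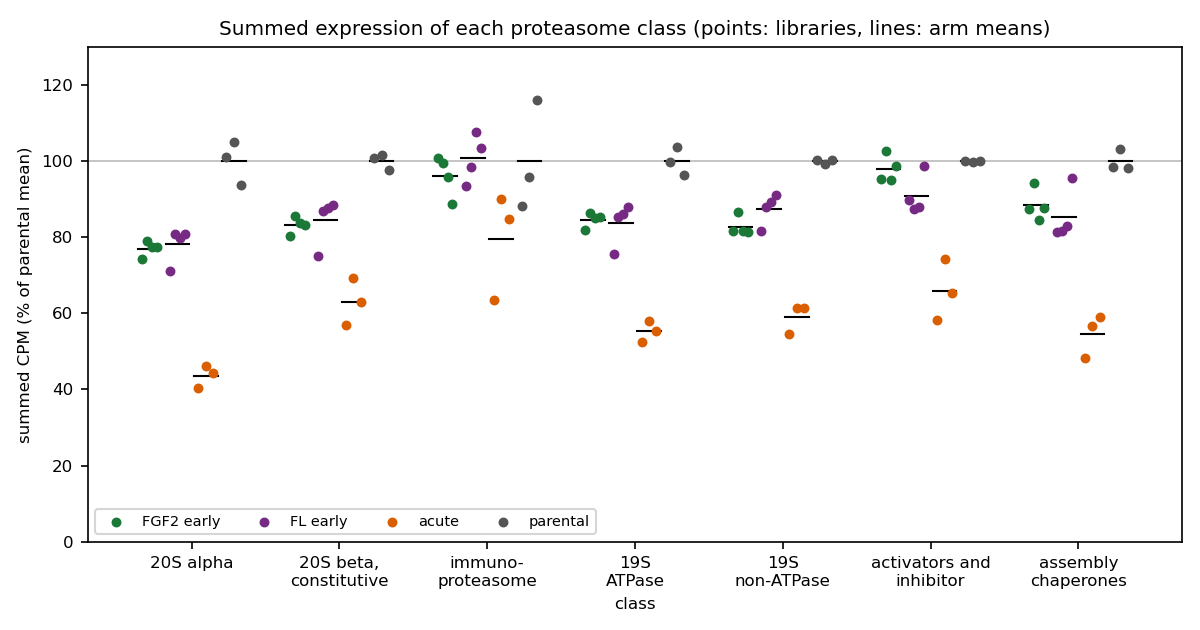
Summed CPM of each class in each library, as a percentage of the parental mean, with lines at arm means. Alpha subunits are lowest in acute cells at 43.7%, and the immunoproteasome sum, which as counted is mostly PSMB10, averages 98.5% in early cells. That sum leaves out unnamed identifiers with the same counts as PSMB8 and PSMB9.

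Genes that work beside the proteasome were counted in the same way. Of 16 genes for 19S-associated proteins and ubiquitin shuttles, 11 fell and 2 rose in acute against parental cells, and 6 fell in early cells, with medians of -0.53 and -0.11. Over all genes, 30.3% fell and 32.3% rose in acute cells, and 16.1% fell and 13.7% rose in early cells. UCHL5, a deubiquitinase bound to the particle, averaged 23.9 ± 2.88 CPM in acute and 136 ± 7.35 CPM in parental libraries (SD, n = 3 each), a change of -2.51 ± 0.12 (edgeR quasi-likelihood test, Benjamini-Hochberg adjusted p = 4.48e-10). USP14, the other such deubiquitinase, changed by -1.70 ± 0.10 (edgeR adjusted p = 3.48e-09) and the shuttle RAD23B by -1.39 ± 0.08 (edgeR adjusted p = 2.08e-09). In early cells the changes of UCHL5, USP14 and RAD23B were -0.30, -0.36 and -0.10, of which the last was not called. AKIRIN2, which carries proteasomes into the nucleus, rose by 0.31 ± 0.09 in acute cells (edgeR adjusted p = 0.00782).

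NFE2L1 is the transcription factor that induces proteasome genes when proteasome activity is short. Of the 11 genes of its axis and of the segregase that frees it from the membrane, 6 rose and 4 fell in acute cells, and 4 rose and 2 fell in early cells. The falls are near the shares over all genes, 30.3% in acute and 16.1% in early cells, where 32.3% and 13.7% of all genes rose. NFE2L1 itself rose by 0.40 ± 0.11 in acute cells (edgeR adjusted p = 0.0044) and by 0.27 ± 0.09 in early cells (edgeR adjusted p = 0.0339), at 135 ± 11.6 CPM in FGF2 early and 111 ± 13.1 CPM in FL early (SD, n = 4 each), 134 ± 6.40 CPM in acute and 101 ± 10.3 CPM in parental libraries (SD, n = 3 each). DDI2, the protease that activates it, changed by -0.59 ± 0.09 in acute cells (edgeR adjusted p = 4.60e-05), and the segregase VCP by -0.70 ± 0.07 (edgeR adjusted p = 1.24e-06). NPLOC4, a cofactor of VCP, rose by 0.88 ± 0.08 (edgeR adjusted p = 5.71e-07), and the small MAF partner MAFG by 0.78 ± 0.08 (edgeR adjusted p = 6.84e-07).

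UBB, a polyubiquitin gene, changed by -0.72 ± 0.08 in acute cells (edgeR adjusted p = 3.49e-06) and by -0.29 ± 0.07 in early cells (edgeR adjusted p = 0.00536). RPS27A, which encodes ubiquitin fused to a ribosomal protein, rose by 0.33 ± 0.11 in acute cells (edgeR adjusted p = 0.0155). Whether the larger share of ribosomal protein counts in acute libraries bears on it was not tested. The ubiquitin-activating enzymes UBA1 and UBA6 changed by -0.55 ± 0.06 (edgeR adjusted p = 3.19e-06) and -0.92 ± 0.14 (edgeR adjusted p = 6.13e-05) in acute cells.

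Of 12 genes of antigen processing and interferon control, 1 rose and 4 fell in acute cells, and 5 rose and 1 fell in early cells. Over all genes, 32.3% rose and 30.3% fell in acute cells, and 13.7% rose and 16.1% fell in early cells. CALR, a chaperone of the peptide loading complex, averaged 2309 ± 192 CPM in early (SD, n = 8), 440.0 ± 69.6 CPM in acute and 1602 ± 31.9 CPM in parental libraries (SD, n = 3 each). Its change was -1.86 ± 0.11 in acute cells (edgeR adjusted p = 5.74e-09) and 0.53 ± 0.09 in early cells (edgeR adjusted p = 0.00112). TAP2, a subunit of the peptide transporter, changed by -1.80 ± 0.15 in acute cells (edgeR adjusted p = 1.24e-07), and PDIA3, another member of the loading complex, by -1.29 ± 0.07 (edgeR adjusted p = 1.75e-09). IRF8, a myeloid transcription factor that induces immunoproteasome genes, changed in early cells by -1.40 ± 0.13 (edgeR adjusted p = 8.22e-06), with 288 ± 23.6 CPM in FGF2 early and 437 ± 109 CPM in FL early (SD, n = 4 each), against 936 ± 36.1 CPM in parental libraries (SD, n = 3). In acute cells its change was -0.09 ± 0.16 (edgeR adjusted p = 0.651). IRF1, a transcription factor of the interferon response, changed by 0.20 ± 0.10 in early cells (edgeR adjusted p = 0.123).

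The pair of symbols that encode no subunit went separate ways. PSMC3IP measured 16.4, 16.3, 16.8 and 17.6 CPM in FGF2 early, 14.6, 11.5, 13.9 and 17.9 CPM in FL early, 2.62, 1.96 and 1.58 CPM in acute and 18.97, 18.5 and 17.5 CPM in parental libraries, a change of -3.15 ± 0.18 in acute cells (edgeR adjusted p = 3.83e-09), larger than that of any proteasome gene. PSME3IP1 rose by 0.48 ± 0.07 in acute cells (edgeR adjusted p = 2.93e-05) and was the single member lower in early than in acute cells, at -0.39 ± 0.06 (edgeR adjusted p = 3.04e-05).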

How the data were processed

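Poly(A) RNA libraries were stranded, per the labels' protocols. The authors' deposited table gives kallisto estimated counts for each Ensembl gene, with no scaling for depth, and the submitters' processing notes name kallisto and GRCh37. The kallisto version and the way transcripts were summed to genes are not given in the sources used here. Gene symbols came from a table of identifiers (33353 of 39293 matched, 84.9%), and identifiers without a name took between 4.63% and 5.53% of counts. Protein-coding status and transcript lengths came from GENCODE 29, which describes another build, so no coordinates come from it. Promoter sequences are RefSeq's.

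Counts were rounded and filtered (edgeR's filterByExpr, at least 10 counts and 15 in all), which left 15756 genes. They were scaled by TMM and tested in R 4.3.3 with edgeR 4.0.16 (robust quasi-likelihood fit of 4 arms, Benjamini-Hochberg adjustment over all genes tested). The standard error is the size of the log2 fold change divided by the root of the F statistic. The early arm is the mean of FGF2 early and FL early. Sums, ratios and CPM per kb (CPM over the median length of protein-coding transcripts) are descriptions without a test. The procedure was checked on simulated counts.

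Members, classes and lists were chosen with earlier results of these data known. Genes given with values are the catalytic, immunoproteasome, activator, inhibitor and assembly members, and in each comparison the 5 others with the smallest adjusted p. PSMB4, PSMD1, PSMD4, PSMC4 to PSMC6 and the non-subunit symbols were singled out after their values were seen. Alternatives were other scalings, no filter on low counts, DESeq2 1.42.0, limma-voom (limma 3.58.1), fits on fewer libraries, a replicate block, a 1.5-fold limit and leaving out each library. Reads of near-identical sequences, such as those of PSMB8, may be split between identifiers. Depth set by 25723575 to 33075041 counts limits the low genes most (PSMB9), and counting error is only part of the spread. Some genes of the accompanying lists are not reported here.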

Additional observations from a re-analysis of the deposited data

Results flagged for a closer look

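In the 4 libraries of each early arm, some members had 1 library far from the other 3. Single-gene values were checked in 96 sets of a gene and an arm, of which 8 were flagged, and chance flags about 1 in 20 groups. In FGF2 early cells, PSME4 was 53.8 CPM in replicate 3 (the others 60.4 to 61.7), PSMD14 60.6 CPM in replicate 3 (56.4 to 56.5) and PSMB4 243 CPM in replicate 1 (259.6 to 262). The summed non-ATPase genes of the 19S particle were 1275 CPM in FGF2 early replicate 2 (1196 to 1203).

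In FL early cells, replicate 1 was low for POMP at 83.3 CPM (106 to 109.5), for PSMB7 at 98.4 CPM (108 to 109.6), for the summed alpha subunits at 801 CPM (898 to 911) and for the summed constitutive beta subunits at 754 CPM (872 to 887). The same library had the log2 ratio of PSMB8 to PSMB5 at -4.17 (-2.34 to -2.26). Replicate 4 was high for PSMD8 at 204 CPM (162 to 168), for PSMD7 at 115 CPM (96.0 to 98.4) and for the summed assembly factors at 409 CPM (348 to 354). Replicate 3 was low for PSMD10 at 18.9 CPM (22.7 to 23.0).

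The early lines differed in PSMD14, at -0.29 in FGF2 early against FL early cells on the log2 scale, and in PSMG3, at 0.35, both by edgeR's quasi-likelihood test of that difference.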

How the results depend on the processing

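Of the calls reported, 18 of 30 in early against parental, 40 of 43 in early against acute and 42 of 45 in acute against parental cells held under every alternative run other than the 1.5-fold limit, and between the early lines PSMD14 held in all 25 while PSMG3 was lost in 8. A 1.5-fold limit leaves 0 members higher and 0 lower in early against parental, 22 higher and 0 lower in early against acute, 0 higher in acute against parental, 0 higher and 1 lower in FGF2 early against parental, 0 lower in FL early against parental, and 0 in either direction between the early lines. Other counts that moved were 4 lower in early against acute cells (upper quartile scaling), 1 higher in acute against parental (acute library without ligand only), 4 higher in FGF2 early and 1 higher and 15 lower in FL early against parental (only the libraries compared), 1 higher in FL early against parental and 3 higher between the early lines (total counts), and 3 lower between the early lines (DESeq2). Leaving out each library gave 0 to 2 higher and 19 to 31 lower in early against parental, 1 to 2 lower in early against acute, 0 to 1 higher in FGF2 early, 0 to 1 higher and 12 to 27 lower in FL early, and 0 to 4 higher and 1 to 2 lower between the early lines. Replicate numbers did not pair the libraries (correlations of deviations -0.09 to 0.07). With the replicate block, 30 members fell in early, 27 in FGF2 early and 26 in FL early against parental cells, and 2 were higher and 2 lower between the early lines; the same libraries without the block, an alternative chosen after seeing the data, gave 31, 29 and 28 lower, 1 higher in FL early, and 2 lower between the lines. No paired analysis was possible for the acute arm because its libraries differ in ligand. Signs turned for uncalled values: PSME3 in early against parental was 0.0073 (total counts); PSMB10 was -0.00968 with RLE factors, -0.00772 with upper quartile scaling, -0.00969 with DESeq2, and -0.091 to 0.15 over left-out libraries. With the acute library without ligand only, early against acute was 0.26 for PSMD9, 0.11 for PSMF1, 0.13 for PSMD4 and 0.10 for PSMB4. Over left-out libraries PSMD9 lay between -0.15 and 0.12, PSMD4 between -0.10 and 0.029, and PSMB4 between -0.15 and 0.00031. The causes were not tested. Summing identifiers of 1 symbol touched no member, so sums and ratios are as reported. Single genes outside the proteasome list are given from the reported fit only. Calls over all genes were counted in that fit and under the other scalings, and in no other alternative.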
